A study of Mus musculus with 12 samples.

Results

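The genes described here carry out the urea cycle and the other main routes by which the liver takes up and releases ammonia. They are Nags, Cps1, Otc, Slc25a15, Ass1, Asl, Arg1, Gls2, Glul and Got1. Probes were assigned to them through the RefSeq transcript that each probe names, and all 10 of the 10 genes were on the array, with 15 of its 56605 probes. All 15 probes were well above background on all 12 arrays, so each of the 10 genes was among the 26405 genes tested.

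Liver RNA was measured on one-colour arrays in 4 groups of 3 male mice: Akp3-/- mice given IIAEK, Akp3-/- mice given vehicle, wild-type mice given IIAEK and wild-type mice given vehicle. Akp3 encodes an intestinal alkaline phosphatase (IAP), and the labels call the Akp3-/- mice IAP-KO. Both Akp3 probes were above background on 0 of the 12 arrays, so the liver values hold no check of the genotype. IIAEK is a peptide of isoleucine, isoleucine, alanine, glutamate and lysine, given by mouth at 600 mg/kg per day for 14 days in carboxymethylcellulose (5 g/L), which the vehicle mice received alone. The mice were 7 weeks old per the series description and livers were collected after an 8 h fast. Their strain is not given in the sources used here.

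The liver converts ammonia to urea in hepatocytes around the portal vein. There, glutaminase 2 (Gls2) releases ammonia from glutamine, carbamoyl phosphate synthetase (Cps1) fixes it once N-acetylglutamate from Nags has activated the enzyme, and Otc, Ass1, Asl and Arg1 carry the nitrogen on to urea. Ammonia that escapes is caught by glutamine synthetase (Glul), which the liver makes almost only in the last hepatocytes before the central vein. The urea cycle is known in rodents to be induced by dietary protein, fasting, glucagon and glucocorticoids.

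Levels are given as log2 of the processed signal minus the 75th percentile of the same array, in log2 units, so a level can be compared between arrays for 1 gene but not between genes. Per array, the 75th percentile of the signal was 314.6 to 529.4, and between 56.8% and 61.9% of probes passed the software's background flag. Replicate 1 of each group lay on slide 1 and replicates 2 and 3 on slide 2. The 4 groups did not separate on the first principal component of all tested genes, which held 55.4% of the variance. On it, 4 vehicle arrays stood apart at 74.1 to 88.1: Akp3-/- vehicle 1 and 3 and wild-type vehicle 2 and 3. The other 8 arrays lay at -57.3 to -11.3 and included Akp3-/- vehicle 2 and wild-type vehicle 1. The 4 arrays are not a group of the study, and what sets them apart was not tested. Hepatocyte markers were above background on every array (5 of 5 on the array), with a summed level of 1850 to 2370 in the 4 arrays and 2310 to 3290 in the other 8.

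Sums of the markers of several other cell types moved with this split, though not every marker of a list did. The summed level of 7 Kupffer cell markers was 334 to 431 in the 4 arrays and 116 to 258 in the other 8. Cd5l (7.45 to 7.85 against 5.75 to 7.14), Marco (5.36 to 6.40 against 1.68 to 4.04) and C1qa were higher without overlap. Adgre1, Clec4f, Vsig4 and Csf1r overlapped. That of 6 stellate cell markers was 201 to 279 against 99.8 to 150. For 5 liver endothelial markers the sum was 45.6 to 53.6 against 62.3 to 73.8. Of these, Clec4g was lower without overlap (4.44 to 4.93 against 5.05 to 5.61) and Lyve1 higher (2.11 to 2.41 against 0.16 to 1.02). Stab2, Kdr and Pecam1 overlapped. The 5 cholangiocyte markers summed to 1.37 to 1.82 against 0.473 to 0.776, and the 5 lymphocyte markers to 5.97 to 7.62 against 2.9 to 5.5. Of the lymphocyte markers, Ptprc was higher in the 4 arrays (2.17 to 2.54 against 0.56 to 1.61) and Cd3e lower (-0.3 to -0.05 against 0.13 to 0.98). Cd79a, Cd8a and Nkg7 overlapped. The 4 adipocyte markers summed to 14.3 to 21.9 against 5.58 to 8.55, almost all of it Fabp4 (3.83 to 4.45 against 2.46 to 3.09). Cfd overlapped, and Adipoq and Plin1, which define adipocytes, were above background on 0 arrays. The sum of the 6 red cell markers overlapped between both sets (757 to 975 against 268 to 1120). Alas2 among them was lower in the 4 arrays without overlap (2.08 to 2.25 against 2.96 to 4.43), and the others overlapped. Wild-type vehicle 1 also had the highest sum of 9 pancreatic acinar markers, 29.8 against 8.81 to 16.8 on the other 11 arrays. Wild-type IIAEK 1, with a sum of 14.2, was second highest for Cpa1 (-2.72), Cpb1 (-3.76), Pnlip (-4.6) and Try5 (-1.82). The remaining arrays were at most -4.34, -5.61, -5.58 and -4.21 for these genes. Of 9 intestinal markers, 6 were above background on all wild-type vehicle arrays, against 2 to 3 in the other groups. Wild-type vehicle 2 was the highest array for Vil1, Sis (1.30), Muc2, Alpi, Cdx1, Cdx2 and Lct (0.07). Krt20 was higher in the 4 arrays without overlap (-0.43 to 1.45 against -5.91 to -1.59). The part of these markers in the results below was not tested. In whole liver, fewer cells of a type and less RNA per cell cannot be told apart.

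Glul gave the widest spread of the 10 genes. Its level was 5.86, 5.80 and 5.93 in Akp3-/- IIAEK livers, 3.75, 6.06 and 3.43 in Akp3-/- vehicle livers, 5.35, 6.07 and 5.78 in wild-type IIAEK livers and 6.39, 3.09 and 3.09 in wild-type vehicle livers (replicates 1 to 3). The 4 vehicle arrays that stood apart were the 4 lowest, at 3.09 to 3.75, and did not overlap the other 8, at 5.35 to 6.39. Both other Glul probes separated the same arrays, at 0.85 to 1.97 against 3.29 to 4.46 and at -2.45 to -1.56 against -0.10 to 1.05. The means were 5.86 ± 0.07 in Akp3-/- IIAEK and 4.41 ± 1.44 in Akp3-/- vehicle livers, and 5.73 ± 0.37 in wild-type IIAEK and 4.19 ± 1.90 in wild-type vehicle livers (SD, n = 3 each).

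The log2 change of Glul with IIAEK was 1.45 ± 0.86 in Akp3-/- and 1.54 ± 0.86 in wild-type mice (SE; limma adjusted p 0.664 and 0.424), and neither passed the threshold of 0.05. Within slide 1, which held 1 array of each group, the change was 2.11 in Akp3-/- and -1.04 in wild-type mice, and within slide 2 it was 1.12 and 2.84. Leaving out the 4 arrays leaves 1 vehicle array per genotype, Akp3-/- vehicle 2 and wild-type vehicle 1. Every change with IIAEK given without the 4 arrays then sets 3 IIAEK arrays per genotype against 1 vehicle array, which is assumed to vary like the IIAEK groups. Against those single arrays the change of Glul was -0.20 in Akp3-/- and -0.66 in wild-type mice (limma adjusted p 1.0 and 0.489). Without wild-type vehicle 1 the wild-type change was 2.64 and passed (adjusted p 0.031), while 14.9% of all tested genes (3939) then passed in that comparison. Between genotypes the change was 0.13 ± 0.86 in IIAEK mice and 0.22 ± 0.86 in vehicle mice (adjusted p 0.973 and 0.958).

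The promoters of Glul and Nags are shown because these were the 2 genes of the 10 that were lower in the 4 arrays with no overlap, Nags at 0.80 to 1.72 against 1.76 to 2.40 in the other 8. Slc25a15 was the 1 gene that was higher there, at 1.31 to 2.63 against 0.84 to 1.25. Over all tested genes 12.8% were lower in the 4 arrays without overlap and 10.3% higher. The promoters are RefSeq windows on the plus strand of GRCm38.p6, 250 bases before to 50 bases after the transcript start. Promoters were found for 6 of the 10 genes in the table used. Capitals in Nags mark 1 TTTCTAAA, a match to the loose C/EBP pattern TTNNGNAA (read on both strands), and 1 CGTCA, the reverse complement of TGACG (the short form of a cAMP response element).
Glul at chr1:153899679-153899978: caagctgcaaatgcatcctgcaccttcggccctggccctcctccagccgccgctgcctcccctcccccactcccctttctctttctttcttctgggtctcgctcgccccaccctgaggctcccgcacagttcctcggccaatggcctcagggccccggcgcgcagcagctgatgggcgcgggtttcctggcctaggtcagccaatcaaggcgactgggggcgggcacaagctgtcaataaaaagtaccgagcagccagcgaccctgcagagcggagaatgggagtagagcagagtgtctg
Nags at chr11:102145263-102145562: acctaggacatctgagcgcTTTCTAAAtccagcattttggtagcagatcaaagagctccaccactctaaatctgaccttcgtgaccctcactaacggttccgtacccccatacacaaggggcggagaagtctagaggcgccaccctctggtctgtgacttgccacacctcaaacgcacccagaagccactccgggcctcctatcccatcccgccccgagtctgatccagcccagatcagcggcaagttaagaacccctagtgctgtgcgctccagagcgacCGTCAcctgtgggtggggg
Of all 32851 promoters of that length, 40.7% held TTNNGNAA and 20.8% held TGACG. Glul held neither, nor TGACGTCA (1.79% of promoters), AGAACA (19.0%), TTGCGCAA (0.183%), CAAAGTCCA (0.475%) or TATAAA (13.6%) on either strand. A match describes letters only and no factor's binding was measured.

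**Figure D1:**
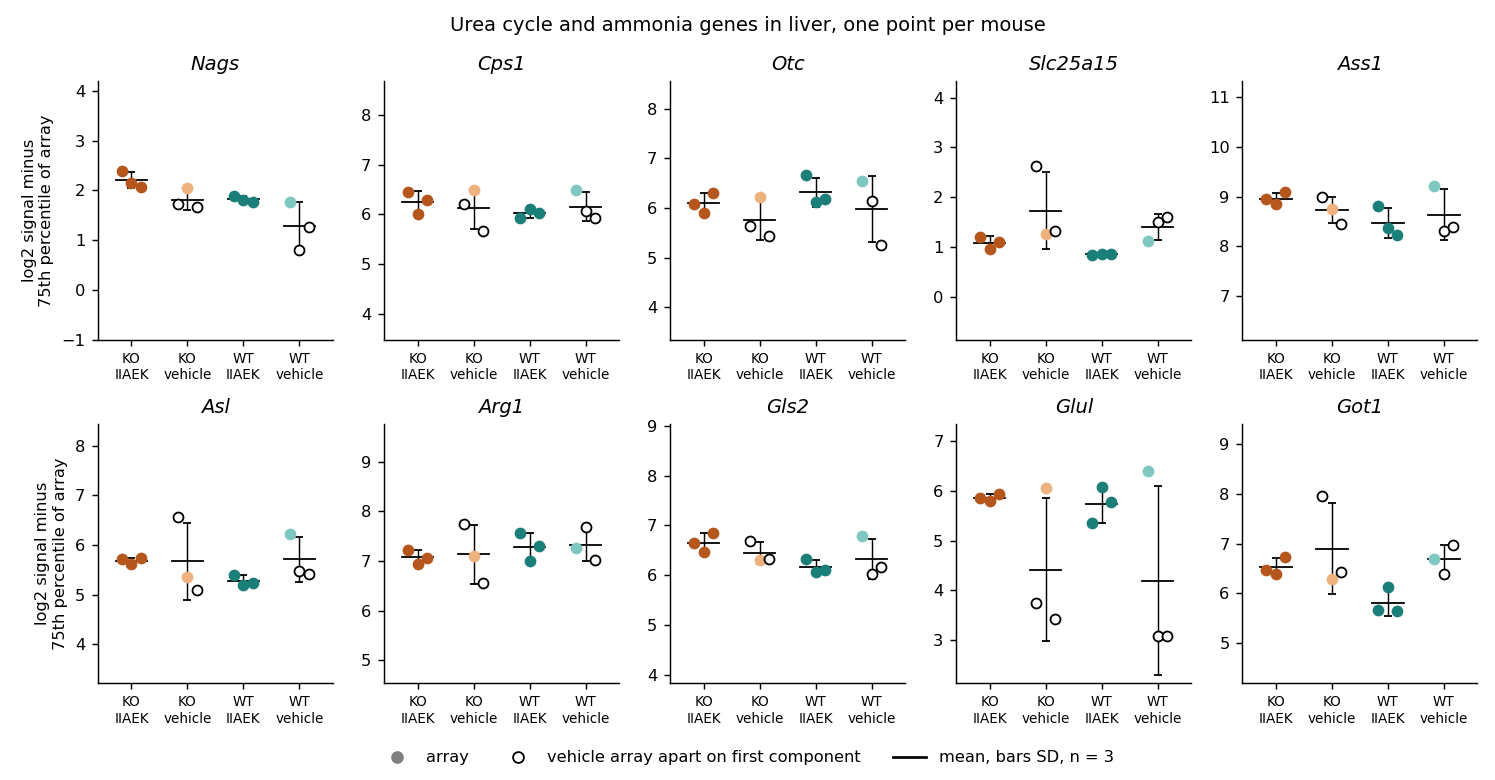
Level of each of the 10 genes (y axis, log2 signal minus the 75th percentile of the array; each panel spans the same range) in 12 livers by group (x axis), with 1 point per mouse, a line at the mean and bars for SD (n = 3). Open points are the 4 vehicle arrays that stood apart, and for Glul they lie at 3.09 to 3.75, while the other 8 arrays lie at 5.35 to 6.39.

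**Figure D2:**
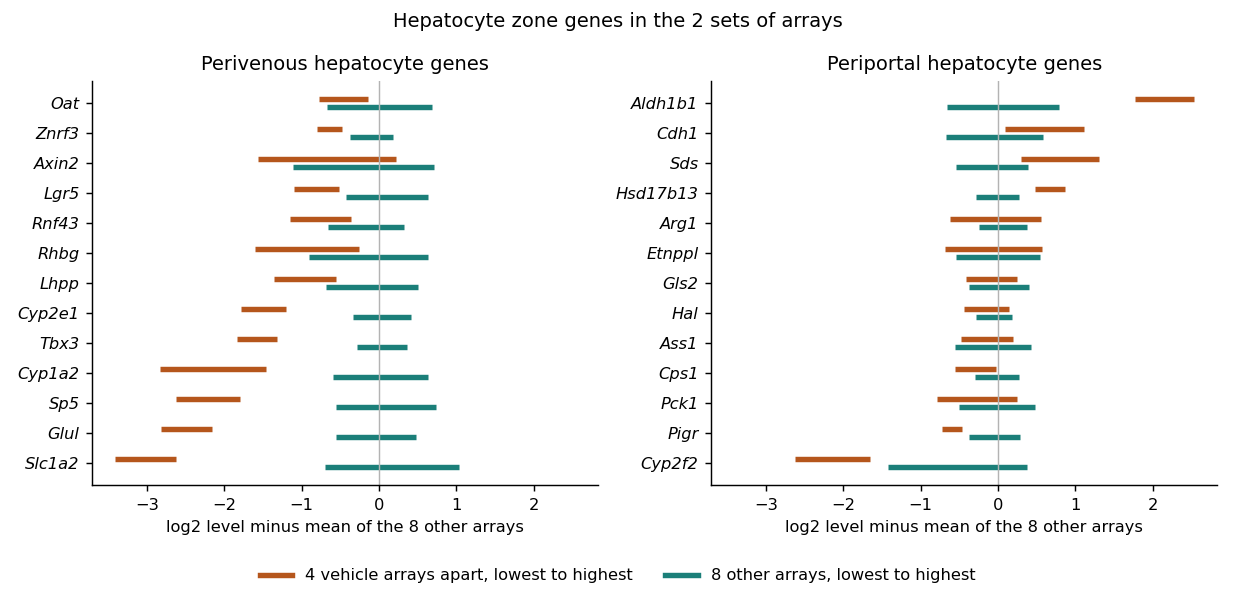
Log2 levels of 13 perivenous and 13 periportal hepatocyte genes (y axis) relative to the mean of the 8 other arrays (x axis), with 1 bar from the lowest to the highest of the 4 vehicle arrays that stood apart and 1 for the 8 others. Glul and 7 more perivenous genes have bars that do not overlap, all lower in the 4 arrays, and of the periportal genes 2 are lower and 2 higher.

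The plot of zone genes sets Glul beside other hepatocyte genes with a known position in the liver lobule. Of the 13 perivenous genes (those around the central vein), 8 (61.5%) were lower in the 4 arrays with no overlap and 0 higher, while over all tested genes 12.8% were lower and 10.3% higher. Slc1a2, a glutamate transporter of perivenous hepatocytes, lay at -0.74 to 0.05 in the 4 arrays and at 1.97 to 3.70 in the other 8. Cyp2e1, a perivenous cytochrome P450, lay at 7.57 to 8.16 against 9.03 to 9.77, and Tbx3, a transcription factor, at 1.72 to 2.24 against 3.27 to 3.92. Of the 13 periportal genes, which include Gls2, Ass1, Cps1 and Arg1, 2 were lower (Cyp2f2 and Pigr) and 2 higher (Aldh1b1 and Hsd17b13). The arrays were divided by the same expression values, so these counts describe the 4 arrays and are no test. In the comparisons that hold these arrays as vehicle, 13 of the 13 perivenous genes were higher with IIAEK in Akp3-/- mice (median 0.61) and 12 in wild-type mice (median 0.96), against medians of 0.04 and 0.05 over all tested genes. The smallest p was that of Tbx3 in both, at 1.24 ± 0.47 in Akp3-/- and 1.04 ± 0.47 in wild-type mice (SE; limma adjusted p 0.664 and 0.393), and 0 of the 13 passed.

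The plot of levels by group shows a narrower spread for the other 9 genes, with a 12-array range of 0.80 (Gls2) to 2.32 (Got1), against 3.30 for Glul. Nags, which makes the activator of Cps1, was at 2.40, 2.15 and 2.07 in Akp3-/- IIAEK livers and 1.72, 2.05 and 1.66 in Akp3-/- vehicle livers, and at 1.89, 1.80 and 1.76 in wild-type IIAEK livers and 1.76, 0.80 and 1.27 in wild-type vehicle livers. The IIAEK arrays were higher without overlap in both genotypes, although the lowest wild-type IIAEK array and the highest wild-type vehicle array both round to 1.76. The log2 change was 0.40 ± 0.22 in Akp3-/- and 0.54 ± 0.22 in wild-type mice (SE; limma adjusted p 0.664 and 0.393), and 0.47 ± 0.16 averaged over genotype (adjusted p 0.181). Without the 4 arrays, against 1 vehicle array per genotype, these were 0.15, 0.06 and 0.11. Without wild-type vehicle 1 the wild-type change was 0.78 (adjusted p 0.0327) and the averaged one 0.59 (adjusted p 0.0154), in fits where 14.9% and 24.9% of all tested genes passed.

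Slc25a15, which exchanges ornithine and citrulline across the mitochondrial inner membrane, ran the other way. It lay at 1.20, 0.95 and 1.09 in Akp3-/- IIAEK livers and 2.63, 1.25 and 1.31 in Akp3-/- vehicle livers, and at 0.84, 0.86 and 0.85 in wild-type IIAEK livers and 1.11, 1.49 and 1.60 in wild-type vehicle livers. The IIAEK arrays were lower without overlap in both genotypes, with changes of -0.65 ± 0.31 and -0.55 ± 0.31 (limma adjusted p 0.664 and 0.43). Against the single vehicle array left per genotype without the 4 arrays, at 1.25 and 1.11, they were -0.17 and -0.26. Akp3-/- vehicle 1 was the highest array for this gene and for Got1, Asl and Arg1.

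Cps1, which fixes ammonia as carbamoyl phosphate, ran from 5.67 to 6.49 over the 12 arrays, a 1.76-fold range. Otc, which joins carbamoyl phosphate to ornithine, ran from 5.25 to 6.66, and Arg1, which splits arginine into urea and ornithine, from 6.56 to 7.74. For these 3 genes the groups overlapped in all 4 comparisons between pairs of groups. Their changes with IIAEK were 0.13 ± 0.23, 0.34 ± 0.32 and -0.07 ± 0.29 in Akp3-/- mice, and -0.13 ± 0.23, 0.34 ± 0.32 and -0.04 ± 0.29 in wild-type mice (SE). The limma adjusted p of these 6 changes was at least 0.629.

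Ass1 makes argininosuccinate from citrulline and aspartate, Asl cleaves it to arginine and fumarate, and Got1 is the cytosolic aminotransferase that interconverts aspartate and glutamate. With IIAEK in wild-type mice, Got1 lay at 5.67, 6.13 and 5.65 against 6.70, 6.39 and 6.98 with vehicle, lower without overlap, and Asl at 5.40, 5.19 and 5.24 against 6.22, 5.47 and 5.42, also lower without overlap. Their changes were -0.88 ± 0.38 and -0.43 ± 0.34 (SE; limma adjusted p 0.393 and 0.563). That of Asl was -0.17 without wild-type vehicle 1, its highest vehicle array, and -0.94 against that array alone. In Akp3-/- mice the arrays overlapped, with Got1 at 6.48, 6.40 and 6.74 with IIAEK and 7.96, 6.30 and 6.43 with vehicle. The Akp3-/- change of Got1 was -0.36 ± 0.38, and 0.24 against the single array Akp3-/- vehicle 2, at 6.30.

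With IIAEK the arrays of Ass1, Asl, Gls2 and Got1 were higher in Akp3-/- than in wild-type livers without overlap. Ass1 lay at 8.95, 8.85 and 9.09 in Akp3-/- IIAEK livers and 8.82, 8.37 and 8.23 in wild-type IIAEK livers. Gls2 lay at 6.64, 6.47 and 6.84 against 6.33, 6.07 and 6.11. Slc25a15 and Nags did not overlap either, so 6 of the 10 genes were higher without overlap and 0 lower, where over all tested genes 13.0% were higher and 14.6% lower. The count is not of independent genes. Over the 8 arrays that did not stand apart, Pearson r between these 6 was 0.13 (Nags and Asl) to 0.93 (Ass1 and Gls2). None of the 4 arrays that stood apart is in either IIAEK group, although they enter the spread shared by all groups. Some marker sums were lower in Akp3-/- than in wild-type IIAEK livers without overlap. Hepatocyte sums were 2310 to 2680 against 2710 to 3110 and endothelial sums 62.3 to 65.7 against 67.6 to 72.9. Red cell sums were 268 to 331 against 441 to 1120 and intestinal sums 121 to 155 against 168 to 178. Sums of the other cell types overlapped, and the part of these differences in the gene changes was not tested. The changes were 0.49 ± 0.26 for Ass1, 0.48 ± 0.21 for Gls2, 0.41 ± 0.34 for Asl, 0.73 ± 0.38 for Got1, 0.39 ± 0.22 for Nags and 0.23 ± 0.31 for Slc25a15 (SE), and the smallest limma adjusted p was 0.628, so none passed. With the spread estimated from the 6 IIAEK arrays alone, the smallest was 0.169 and again none passed. Within each slide all 6 had the same sign, which the lack of overlap alone ensures, so it adds no information.

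**Figure D3:**
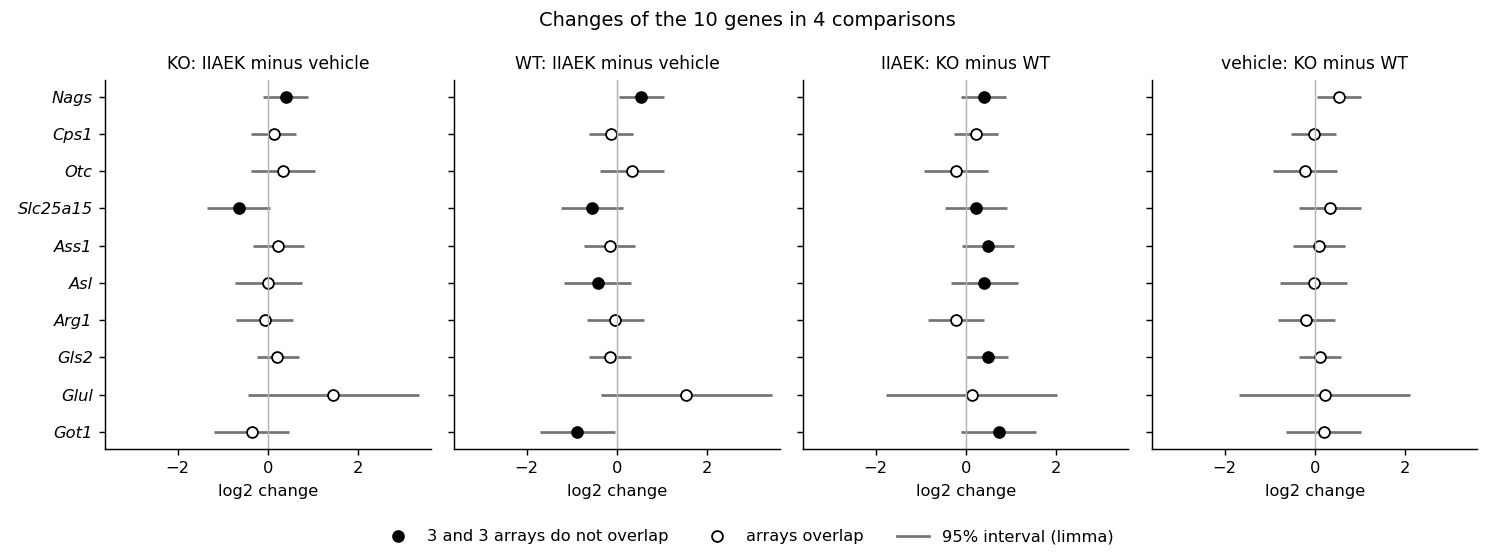
Log2 change (x axis) of the 10 genes (y axis) in 4 comparisons, with 95% limma intervals. Filled points mark genes whose 3 and 3 arrays do not overlap: 2 in Akp3-/- and 4 in wild-type mice for IIAEK against vehicle, 6 for Akp3-/- against wild type with IIAEK and 0 with vehicle. All adjusted p-values were at least 0.393.

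Over the 10 genes, as the plot of changes shows, no change passed the limma adjusted p of 0.05 in any of 6 comparisons, including the difference between both IIAEK effects. With IIAEK in Akp3-/- mice, 0 of 10 passed (0% of all genes), 0 had an unadjusted p under 0.05 (6.29%), 1 was higher without overlap (8.77%) and 1 lower (6.26%). With IIAEK in wild-type mice, 0 passed (0.00379%), 2 had such a p, Nags and Got1 (12.6%), 1 was higher without overlap (7.26%) and 3 lower (5.70%). Averaged over genotype, 0 passed (0%) and 4 had such a p, Nags, Slc25a15, Glul and Got1 (22.8%). For Akp3-/- against wild type, 0 passed with IIAEK (0.00757%) and 1 had such a p, Gls2 (7.83%); with vehicle 0 passed (0.00379%), 1 had such a p, Nags (6.62%), and 0 were higher (3.15%) or lower (5.29%) without overlap. For the difference between the IIAEK effects, 0 passed (0%), 0 had such a p (1.56%) and the values ran from -0.15 to 0.52. The 95% intervals reached 0.46 (Gls2) to 1.90 (Glul) to either side of the IIAEK changes within a genotype, so small changes were not detectable with 3 arrays per group. The comparisons share arrays, so their results are not independent.

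The genes that feed the cycle gave the same count of calls. Of 25 nitrogen shuttle and transporter genes, 24 genes that degrade the residues of the peptide, 31 other amino acid catabolic genes and 11 regulators, 0 passed in any comparison by limma. The shuttle and transporter list also holds enzymes, among them Asns and Glud1. With IIAEK in Akp3-/- mice, 6.29% of all tested genes had an unadjusted p under 0.05. Such a p was found for 3 shuttle or transporter genes that were higher and 1 lower, and for 2 residue genes higher and 1 lower. It was also found for 0 other catabolic genes higher and 1 lower, and for 3 regulators higher and 0 lower. In wild-type mice 12.6% of all tested genes had such a p. There the counts were 1 shuttle or transporter gene higher and 5 lower, and 0 residue genes higher and 1 lower. They were 1 other catabolic gene higher and 4 lower, and 3 regulators higher and 0 lower. Glud1, Got2, Gpt and Gpt2 are in both of the first 2 lists. Glud1 in Akp3-/- mice and Gpt2 in wild-type mice therefore count in both. At any p, 8 regulators were higher and 3 lower in Akp3-/- mice, and 7 higher and 4 lower in wild-type mice. In Akp3-/- mice with IIAEK the smallest p in the shuttle and transporter list was that of Asns, asparagine synthetase (-1.73 ± 0.69), followed by Glud1, glutamate dehydrogenase (0.53 ± 0.22). In wild-type mice the smallest p was that of Asns (-2.37 ± 0.69), followed by Slc7a2, an arginine transporter (-0.71 ± 0.23). Among the regulators it was Onecut1 (0.90 ± 0.31) and Foxa2 (0.77 ± 0.27) in Akp3-/- and Foxa2 (1.18 ± 0.27) and Cebpa (0.78 ± 0.35) in wild-type mice, all hepatocyte transcription factors. Among the other amino acid genes it was Tat, tyrosine aminotransferase (-0.80 ± 0.33), and Prodh2 (0.99 ± 0.47) in Akp3-/- and Tat (-1.14 ± 0.33) and Acmsd (-1.76 ± 0.62) in wild-type mice. For the residues of the peptide it was Glud1 and Crym (-1.08 ± 0.46) in Akp3-/- and the alanine aminotransferase Gpt2 (-0.47 ± 0.20) and Crym (-0.93 ± 0.46) in wild-type mice. The limma adjusted p of these changes was 0.664 in Akp3-/- mice and 0.393 to 0.405 in wild-type mice. Several of these genes also separated the 4 arrays from the other 8. Asns (2.85 to 3.62 against -1.62 to 2.18), Crym (0.48 to 0.66 against -1.17 to -0.79) and Acmsd (1.29 to 3.19 against -0.76 to 1.03) were higher in the 4. Glud1 (6.88 to 7.23 against 7.56 to 7.93), Prodh2 (3.55 to 4.28 against 5.22 to 5.76) and Cebpa (2.74 to 3.26 against 3.81 to 4.65) were lower. Without overlap, 4 of the 11 regulators (36.4%) were lower and 0 higher, against 12.8% lower and 10.3% higher over all tested genes. The arrays were divided by the same expression values, so this count is no test. The part of these arrays in the changes of the lists was not tested.

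By Pearson r over the 12 arrays, among 15314 named genes, Glul was most like Npr2 (0.997), Hsd3b7 (0.992) and Rfx4 (0.991), and over the 8 arrays without the split r was 0.99, 0.85 and 0.87. Gls2 was most like Ier2 (0.906), Serpina3b (0.845) and Chmp1a (0.837), Cps1 most like Tmem253 (0.901), Gulo (0.889) and Slc7a14 (0.875), and Arg1 most like BC031181 (0.922), Ndufaf4 (0.899) and Mkks (0.888). Within the 10 genes, r between Ass1 and Gls2 was 0.94 over the 12 arrays and 0.93 over the 8, and between Asl and Gls2 0.75 and 0.89. Between Cps1 and Slc25a15 it was 0.05 over the 12 arrays and 0.93 over the 8. These values share the scaling and the slides of the same arrays, and are descriptions.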

How the data were processed

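The deposited scanner files hold, per the file headers, Agilent Feature Extraction 10.7.3.1 processed signals: intensity values with the background already subtracted and no scaling between arrays. They also hold flags. The deposited series table holds log2 values, which matched the scanner signals shifted to the 75th percentile and centred on each probe's 12-array median (r 0.99998 to 1.0); its column medians ran from -0.1538 to 0.1707, and it served as an alternative. Non-uniform spots were left out, spots of a probe averaged, log2 taken and the array's 75th percentile subtracted. RefSeq names were given to 32994 of 56605 probes. The files use mm9 and the table of names and promoters GRCm38.p6. The brightest probe by 12-array mean stood for a gene. A gene was tested (26405 were) if some group had its probe above background on each array. limma 3.58.1 in R 4.3.3 fitted 1 mean per group to all 12 arrays (8 residual and 2.73 prior degrees of freedom), with two-sided Benjamini-Hochberg adjusted p over all tested genes and a threshold of 0.05. The fit was tested on simulated data.

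The genes described and the gene lists were chosen with earlier results of these data known. All 10 genes are named, as are for each list described the genes with the smallest p, and for 4 genes the 3 most similar ones. A changed sign was counted only where the change was at least its SE. The labels do not say whether the mice of a group shared a cage or litter, so p-values measure the spread between these mice. One label field gives weeks where others give days of treatment, and 14 days was used.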

Additional observations from a re-analysis of the deposited data

How the results depend on the processing

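The 24 alternatives were background correction, normalization, the deposited table, filters, probe averaging, slide and replicate as blocks, slide 2 alone, only the groups compared, other limma options, each array left out and, chosen after seeing the data, leaving out the 4 arrays named in the report. That last setting keeps a single vehicle array in each genotype and takes the spread from the IIAEK groups. No gene of the 10 passed under any of them except Nags and Glul without wild-type vehicle 1. Leaving out 1 array gave 0 to 3939 genes called for IIAEK in wild-type mice, 0 to 5 in Akp3-/- mice, 0 to 6565 averaged, 1 to 2 and 0 to 4 for genotype with vehicle and with IIAEK, and 0 to 1 for the difference of the IIAEK effects, with 0 to 2 of the 10 in the wild-type and averaged comparisons; without Akp3-/- vehicle 2 the averaged count was 2604. The cause was not tested.

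Genes called for IIAEK in wild-type mice were 2 with no filter and 0 with the slide block, the replicate block, slide 2 alone or only the groups compared. In Akp3-/- mice they were 1 with no filter, slide 2 alone or only the groups compared. Averaged, they were 1 with no filter, 4 on slide 2 and 1 without the 4 arrays. For genotype with vehicle they were 2 with normexp, 0 with only the groups compared and 58 without the 4 arrays, where Akp3-/- vehicle 2 alone is set against wild-type vehicle 1 alone. With IIAEK they were 0 with no filter, probe means, the slide block, the replicate block or slide 2 alone, and 10 with only the groups compared or without the 4 arrays, where the difference of the IIAEK effects had 1.

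Without the 4 arrays the IIAEK change of Glul was -0.20 in Akp3-/-, -0.66 in wild-type and -0.43 averaged, and that of Otc -0.12, -0.23 and -0.17, each reversed and each against 1 vehicle array per genotype. Otc in wild-type mice was -0.03 to 0.63 with 1 array left out. Slc25a15 between genotypes with vehicle was -0.27 on slide 2 and -0.12 to 0.57 with 1 array left out. For changes of at least their SE, 9 of 593 values changed sign, and of smaller ones 98 of 827. Between groups, r of same-numbered arrays was -0.546 to 0.645 (median 0.038) and of differently numbered ones -0.694 to 0.776 (median 0.007). For 6 of 12 arrays the closest array of another group had the same number. These values do not settle whether replicate numbers pair the mice. The replicate block moved no call of the 10 genes.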
